A study of Arabidopsis thaliana with 6 samples.

Results

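The genes described here are 6 jasmonate genes of Arabidopsis thaliana, namely the lipoxygenase genes LOX3 and LOX4, the repressor genes JAZ1, JAZ5 and JAZ7, and the transcription factor gene MYC2. They were chosen from the authors' deposited tables of transcripts called up or down between the genotypes, by gene symbol, title or synonym, and are 6 of the 541 genes that a probe set of those tables names singly. The files gave 5 of the symbols directly, and LOX4 was found by matching its gene identifier to the TAIR10.1 gene table of NCBI RefSeq, from which names and gene order alone were taken. All 6 had been selected by the authors on the same contrast that is described below, so their differences between the genotypes are a description and support nothing further. Their positions below are those of the authors' deposited tables, which state no genome build.

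Jasmonates are oxygenated fatty acid hormones of wounding, defence and stamen development. Their synthesis starts in the plastid, where 13-lipoxygenases such as LOX3 and LOX4 oxygenate linolenic acid, and it ends in the peroxisome. The conjugate of jasmonic acid with isoleucine brings the F-box protein COI1 together with JAZ proteins, which are then degraded. Intact JAZ proteins hold back MYC2, a basic helix-loop-helix factor whose targets include many JAZ and lipoxygenase genes, so the pathway contains its own feedback.

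Gene expression was measured in total RNA on 6 Affymetrix ATH1 arrays, 3 from plants overexpressing the NAC transcription factor gene ANAC069 (OE, line OE-3) and 3 from ANAC069 knockout plants (KO, line KO-2, the T-DNA insertion line SALK_095231C). Both genotypes were 4 weeks old and both had received 200 mM NaCl for 3 h. Each genotype is represented by 1 line, the labels do not state the promoter that drives the transgene, and neither wild-type nor unsalted plants were analysed here, so every difference below lies between 2 salt-treated genotypes. The series describes the replicates as independent biological ones.

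The ANAC069 probe set read 2991, 2386 and 2360.2 in OE replicates 1, 2 and 3, against 386, 364 and 391 in KO replicates 1, 2 and 3. The log2 fold change was 2.70 (SE 0.14), with each OE array above each KO array. Signals are the authors' MAS5 intensities on a linear scale. Array medians lay between 149 and 158 in OE and between 161 and 186 in KO. The labels name no organ, and none of the 9 organ markers looked for (leaf, flower, seed and root) had a named probe set, so tissue make-up was not checked. In RNA from whole samples, fewer cells of a type and less RNA per cell cannot be told apart.

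All 6 jasmonate genes had higher signals in OE than in KO plants under salt. LOX3, LOX4, JAZ5 and JAZ7 were 4.17- to 4.67-fold higher, JAZ1 was 2.92-fold higher and MYC2 2.33-fold higher. These folds come from log2(signal + 16) values, and the added 16 shrinks the fold of a dim probe set. Their median log2 fold change was 2.09, beside -0.08 over the 15922 probe sets tested. In limma all 6 passed an adjusted p of 0.05 in the higher direction, where 3.03% of all tested probe sets did. In each of the 6 every OE array lay above every KO array, as it did in 12.9% of tested probe sets. Nothing is read from either count, because the authors had selected these genes on this contrast.

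**Figure D1:**
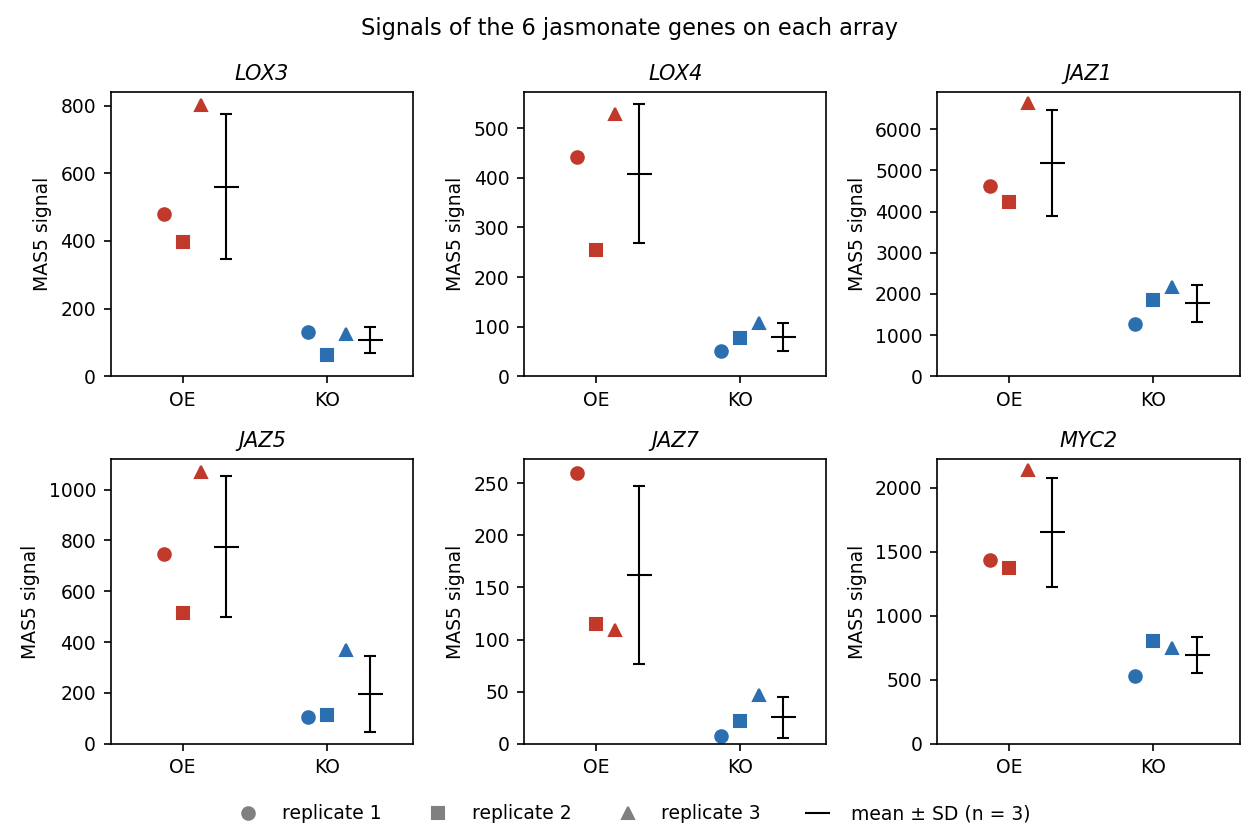
MAS5 signal (linear axis from 0) of the 6 jasmonate genes on each OE and KO array, with symbols for replicate number and black bars for the mean and SD of 3 arrays. In every panel the 3 OE points lie above the 3 KO points, and OE replicate 3 is the highest point for every gene other than JAZ7, whose highest point is OE replicate 1 at 260.2.

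LOX3 (AT1G17420, chromosome 1 from 5977511 to 5981384, plus strand), a 13-lipoxygenase of the first committed oxygenation step, had signals of 479.9, 398 and 804 in OE replicates 1, 2 and 3, against 130.3, 63.7 and 126 in KO replicates 1, 2 and 3. OE replicate 3 stood well above the other OE arrays and KO replicate 2 was the lowest of all 6, and the lowest OE value was 3.06 times the highest KO value, the widest gap of the 6 genes. LOX3 averaged 561 ± 214 in OE and 107 ± 37.3 in KO (SD, n = 3 each), and its log2 fold change was 2.22 (SE 0.31).

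LOX4 (AT1G72520, chromosome 1 from 27308610 to 27312589, plus strand), a second 13-lipoxygenase that acts with LOX3 in stamen development and fertility, read 441, 254 and 529 in OE replicates 1, 2 and 3, against 51.5, 76.3 and 108 in KO replicates 1, 2 and 3. The OE arrays spread 2.08-fold and the KO arrays 2.10-fold, and the groups were apart by a factor of 2.36. LOX4 averaged 408 ± 140.1 in OE and 78.6 ± 28.3 in KO (SD, n = 3 each), and its log2 fold change was 2.15 (SE 0.31). The log2 fold changes of the 2 lipoxygenase genes therefore lay within 1 SE of each other, although their arrays were not ordered alike within KO, where LOX3 was highest in replicate 1 and LOX4 lowest in it.

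JAZ1 (AT1G19180, chromosome 1 from 6622311 to 6623271, plus strand), a repressor that binds MYC2 and is degraded through COI1, read 4633, 4235 and 6638 in OE replicates 1, 2 and 3. Its signals were 1273, 1863 and 2163 in KO replicates 1, 2 and 3. Each group spread less than 1.70-fold, and the lowest OE array was 1.96 times the highest KO array. JAZ1 averaged 5169 ± 1288 in OE and 1766 ± 452 in KO (SD, n = 3 each), and its log2 fold change was 1.55 (SE 0.23).

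JAZ5 (AT1G17380, chromosome 1 from 5955653 to 5957070, minus strand), another JAZ repressor of the same family, had signals of 747, 513 and 1068 in OE replicates 1, 2 and 3, against 107, 112 and 370.3 in KO replicates 1, 2 and 3. KO replicate 3 was 3.47 times KO replicate 1, and the lowest OE array exceeded it by a factor of 1.39, the narrowest gap of the 6 genes. JAZ5 averaged 776 ± 279 in OE and 196 ± 151 in KO (SD, n = 3 each), and its log2 fold change was 2.06 (SE 0.44). Without KO replicate 3 this value was 2.60 (SE 0.29), and without KO replicate 1 it was 1.77 (SE 0.46). JAZ5 passed in 8 of the 16 alternative fits.

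JAZ7 (AT2G34600, chromosome 2 from 14573171 to 14573718, plus strand), a short JAZ protein whose C-terminal Jas motif departs from that of JAZ1, had KO signals near the dim end of the arrays. It read 260.2, 115 and 109.6 in OE replicates 1, 2 and 3, against 7.76, 21.7 and 46.6 in KO replicates 1, 2 and 3. OE replicate 1 was high and the other OE arrays were close together, while the KO arrays spread 6.01-fold. JAZ7 averaged 162 ± 85.4 in OE and 25.4 ± 19.7 in KO (SD, n = 3 each), and its log2 fold change was 2.11 (SE 0.44). JAZ7 did not pass with no filter or with the filter at the 50th percentile, which left its probe set out. It passed in 6 of the 16 alternative fits, where LOX3 passed in 14.

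The size of the JAZ7 difference depended on the constant added before taking logarithms. Its signal in KO replicate 1 was below 16, as were 18.8% of probe sets on that array. With a constant of 1 in place of 16 the log2 fold change was 2.82 (SE 0.63), and with 64 it was 1.30. The authors' deposited table gives JAZ7 as 7.48-fold up. For the other 5 genes the constant of 1 moved the log2 fold change by less than the spread between replicates.

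MYC2 (AT1G32640, chromosome 1 from 11799041 to 11800913, minus strand), the basic helix-loop-helix factor that JAZ proteins repress, had signals of 1437, 1375 and 2141 in OE replicates 1, 2 and 3, against 532, 806 and 744 in KO replicates 1, 2 and 3. OE replicate 3 was the high array and KO replicate 1 the low one, and the lowest OE array was 1.71 times the highest KO array. MYC2 averaged 1651 ± 426 in OE and 694 ± 143 in KO (SD, n = 3 each). Its log2 fold change of 1.22 (SE 0.22) was the smallest of the 6.

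The authors' limits were an unadjusted p of 0.05 and a 2-fold difference. In the authors' deposited table MYC2 came nearest of the 6 to the fold limit at 2.37-fold, and among the same 6 JAZ5 came nearest to the p limit at p = 0.0303. Jasmonate genes just outside these limits have no named probe set here.

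Which of the 6 genes passed depended on the arrays entered. Each stayed higher in OE with any 1 array left out, which the lack of overlap between the groups had fixed in advance. Of the 6, LOX3 alone passed in limma without KO replicate 2 or without OE replicate 3, when 0.961% and 0.553% of all probe sets passed in that direction. Without OE replicate 2 only LOX3 and LOX4 passed (0.415% of all probe sets). Without KO replicate 1, KO replicate 3 or OE replicate 1, 5, 5 and 4 of the 6 genes passed, beside 3.44%, 1.53% and 3.20% of all probe sets. Those that did not were JAZ5 without KO replicate 1, MYC2 without KO replicate 3, and JAZ5 and JAZ7 without OE replicate 1. With any 1 array left out, the log2 fold change stayed between 1.94 and 2.43 for LOX3, 1.93 and 2.44 for LOX4, 1.33 and 1.71 for JAZ1, 1.77 and 2.60 for JAZ5, 1.74 and 2.47 for JAZ7, and 1.02 and 1.34 for MYC2.

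**Figure D2:**
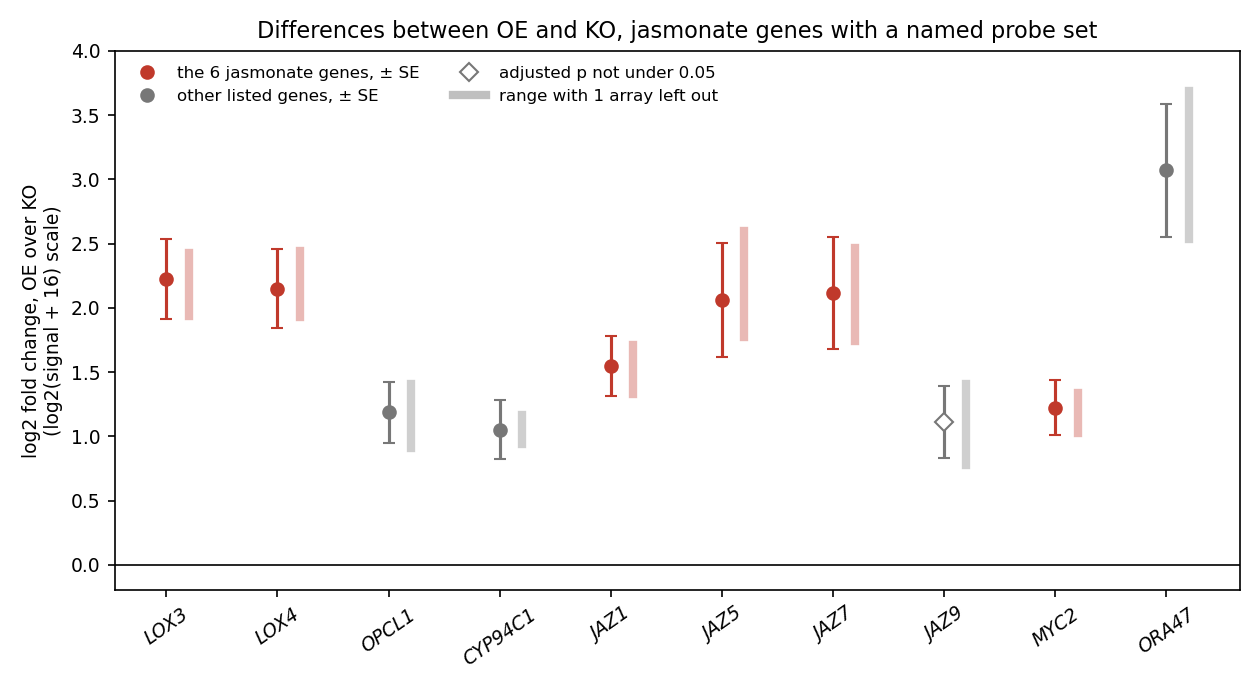
Log2 fold change (OE over KO, log2(signal + 16) scale) with its SE for the 10 listed jasmonate genes that have a named probe set, the 6 genes in red and the others in grey, and thick bars for the range with 1 array left out. All 10 values lie above 0, from 1.05 for CYP94C1 to 3.07 for ORA47, and the open symbol marks JAZ9, which did not pass.

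Within OE all of the 6 genes other than JAZ7 shared an order of arrays, from replicate 3 through 1 to 2. OPCL1, JAZ9, CRK14 and PEPR1, named below, shared this OE order, while CYP94C1, ORA47, BGAL4 and BCAT-2 did not. Within KO the order of replicates 3, 2 and 1 was shared by LOX4, JAZ1, JAZ5 and JAZ7, and LOX3 and MYC2 departed from it. OE replicate 3 was the highest OE array for 5 of them and OE replicate 2 the lowest for 5, with JAZ7 the exception in both. Over all tested probe sets 30.6% were highest in OE replicate 3 and 33.7% lowest in OE replicate 2 among the OE arrays. KO replicate 1 was the lowest KO array for 5 genes (39.3% of all probe sets), with LOX3 the exception. KO replicate 3 was the highest for LOX4, JAZ1, JAZ5 and JAZ7, KO replicate 1 for LOX3 and KO replicate 2 for MYC2. ANAC069 itself spread 1.27-fold among OE arrays and was highest in OE replicate 1 and lowest in OE replicate 3. JAZ7 had the same order and the other 5 genes did not. This order rests on close values in OE replicates 2 and 3, at 2386 and 2360.2 for ANAC069 and 115 and 109.6 for JAZ7. The share of all probe sets with either OE order was not counted.

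**Figure D3:**
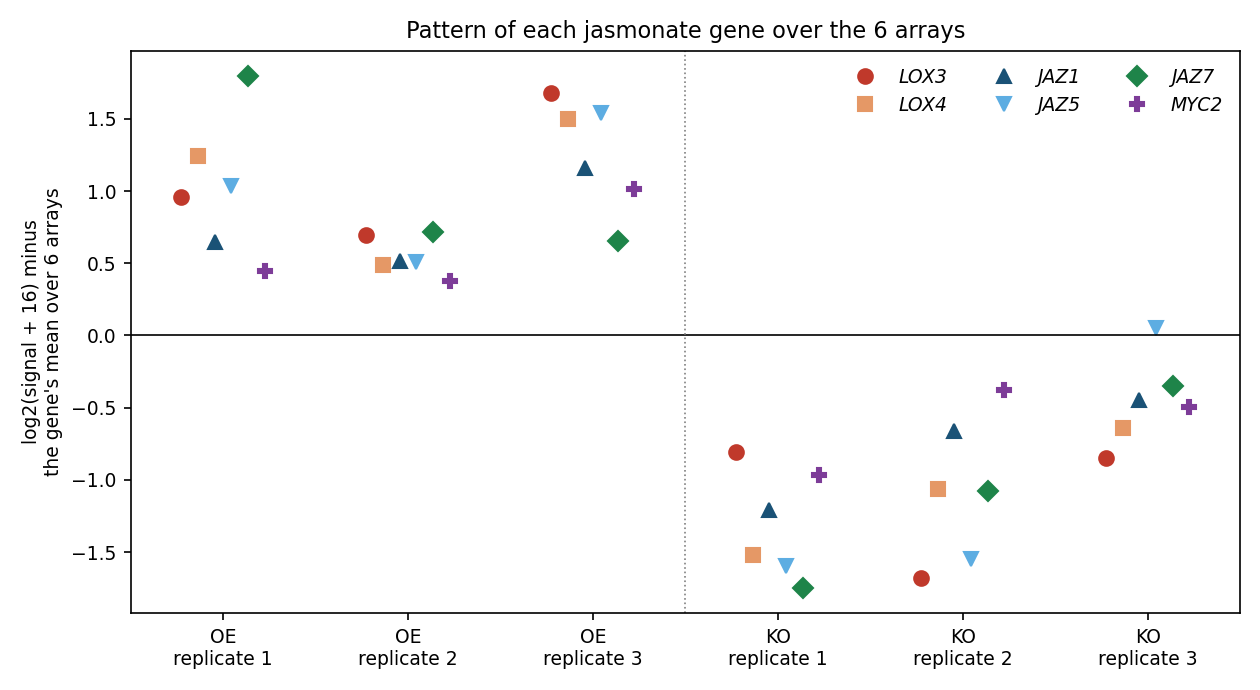
Log2(signal + 16) of each jasmonate gene minus its own mean over the 6 arrays (vertical axis, log2 units), by array, with OE arrays left of KO arrays. OE replicate 3 carries the highest values of 5 genes, JAZ7 peaks in OE replicate 1 at 1.79, and JAZ5 in KO replicate 3 lies at 0.05, the only KO value above its gene's mean.

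Likeness between patterns was measured as the root mean square difference of these centred log2 values over the 6 arrays, in which genes with differences of similar size come out closer. Of the 15 pairs among the 6 genes, JAZ1 and MYC2 were the most alike (0.19) and LOX3 and JAZ7 the least (0.74). LOX3 and LOX4 stood at 0.43. JAZ5 and LOX3 are neighbours on chromosome 1, with 20440 bases between their alignments in the authors' deposited table. In RefSeq's gene order 5 genes lie between them, of which 2 code for protein, and neither has a named probe set here. The difference between the patterns of these neighbours was 0.50, larger than that of 6 other pairs. JAZ1, LOX4 and MYC2 are elsewhere on chromosome 1 and JAZ7 is on chromosome 2.

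Among the 535 other named genes, all of them in the authors' tables, MYC2 was most like AT3G48640 (0.10) and PEPR1 (0.11), a receptor kinase of the Pep danger peptides, where its median over those genes was 0.54. JAZ1 was most like AT2G39420 (0.12) and BCS1 (0.15), an ATPase gene of the outer mitochondrial membrane. The nearest to LOX3 were CRK14 (0.24), a cysteine-rich receptor-like kinase gene, and AT1G24140 (0.31), and the nearest to LOX4 were AT3G01830 (0.23) and AT5G39520 (0.25). JAZ5 was nearest to AT4G00700 (0.30) and AT5G39520 (0.31). JAZ7 was nearest to the beta-galactosidase gene BGAL4 (0.28) and the branched-chain aminotransferase gene BCAT-2 (0.32). Both were highest in OE replicate 1 and lowest in OE replicate 3 among OE arrays. They were picked for likeness over the same arrays, so this shared order is not a separate observation.

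A list of 58 jasmonate loci covered synthesis, conversion of the hormone, perception, repression, transcription factors and targets. It held 52 loci besides the 6 genes, of which 4 had a named probe set, all in the authors' up table. In limma 3 of these 4 passed in the higher direction and 0 in the lower, beside 3.03% of all tested probe sets in the higher direction. JAZ9 was also higher in OE but did not pass. The median log2 fold change of the 4 was 1.15. As the authors chose them on these arrays, the count is not independent evidence. Of the 17 synthesis loci 3 were named, of the 13 JAZ loci 4, and of the 9 transcription factor loci 2, while COI1, the corepressors and the 4 target genes had no named probe set and were not analysed here.

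On the synthesis side OPCL1 (AT1G20510), a peroxisomal CoA ligase that activates jasmonate precursors, read 2382, 1909 and 3829 in OE replicates 1, 2 and 3, against 1268, 1027 and 1105 in KO replicates 1, 2 and 3. It passed with a log2 fold change of 1.19 (SE 0.24) and, like LOX3, was highest in OE replicate 3 and KO replicate 1. ORA47 (AT1G74930), an ERF factor that activates jasmonate synthesis genes, read 1382, 1792 and 2916 in OE replicates 1, 2 and 3, against 95.0, 533 and 189.9 in KO replicates 1, 2 and 3. Its log2 fold change was 3.07 (SE 0.52), above that of each of the 6 genes in a comparison that was not tested, with a 5.61-fold spread among KO arrays. With 1 array left out the value ranged from 2.54 (without KO replicate 1) to 3.69 (without KO replicate 2). It was 4.31 with the RNA ratio covariate described at the end.

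CYP94C1 (AT2G27690), a cytochrome P450 that oxidises the active hormone, had signals of 131, 146 and 105 in OE replicates 1, 2 and 3, against 56.5, 42.8 and 60.3 in KO replicates 1, 2 and 3. It passed with a log2 fold change of 1.05 (SE 0.23), and OE replicate 3 was its lowest OE array. JAZ9 (AT1G70700, listed as TIFY7) read 1811, 1268 and 3032 in OE replicates 1, 2 and 3, against 779, 845 and 1022 in KO replicates 1, 2 and 3. Its groups did not overlap, but OE replicate 3 was 2.39 times OE replicate 2, and its log2 fold change of 1.11 (SE 0.28) did not pass. JAZ9 passed when the filter was set at the 50th percentile and when the arrays were shifted to a common median. Of these 4 genes, 1 (ORA47) passed in limma without KO replicate 2. None passed (0 of 4) when OE replicate 2, OE replicate 3 or KO replicate 3 was left out, where 0.415%, 0.553% and 1.53% of all probe sets passed in the higher direction. All 4 had an unadjusted p under 0.05 in each of those fits, as did 3046, 3534 and 3131 of the 15922 probe sets. The authors had chosen the 4 by an unadjusted p limit of 0.05 on the same arrays, so nothing is read from this.

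By the Gene Ontology annotation in the authors' deposited tables, 4 of the 6 genes (LOX3, JAZ1, JAZ5 and JAZ7) are annotated to the response to jasmonic acid. That term held 10 named genes called up and 2 called down by the authors. The 2 called down, picked out after their place was seen, were the chalcone synthase gene TT4 (AT5G13930) and MYB34 (AT5G60890), a regulator of indole glucosinolate synthesis. Jasmonic acid biosynthesis held 3 named genes, LOX3, LOX4 and OPCL1, and jasmonic acid signalling held 4, JAZ1, MYC2, ANAC055 and SYP122, all in the up table. Of the 6 genes, 5 were annotated to defence response (35 up, 1 down), with MYC2 the exception. A further term, wounding, held 3 of them, LOX3, LOX4 and MYC2 (16 up, 1 down). The response to chitin held 2, JAZ7 and MYC2 (43 up, 1 down). In all, the authors called 341 probe sets up and 226 down. Membership of these tables was set by the authors' limits on the same arrays.

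A sign of RNA quality differed between the genotypes. The mean log2 ratio of 3' to 5' signal over 6 actin, GAPDH and ubiquitin controls was 1.97, 1.94 and 1.73 in OE replicates 1, 2 and 3, against 1.80, 1.57 and 1.53 in KO replicates 1, 2 and 3. In this mean the genotypes overlapped, since OE replicate 3 lay below KO replicate 1. In 3 of the 6 controls they did not, namely 1 actin control (5.11 to 5.79 in OE, 3.41 to 4.48 in KO) and both GAPDH controls (3.03 to 3.15 in OE against 2.06 to 2.69 in KO for the first, and 1.26 to 1.46 in OE for the second, with each KO array below each OE array). OE replicate 3 was also the highest OE array for 5 of the 6 jasmonate genes. With this ratio as a covariate the log2 fold changes were 2.44 (SE 0.48) for LOX3, 2.83 (SE 0.37) for LOX4, 2.20 (SE 0.19) for JAZ1, 3.01 (SE 0.53) for JAZ5, 2.39 (SE 0.67) for JAZ7 and 1.80 (SE 0.20) for MYC2. Each was at least as large as without the covariate, and LOX4, JAZ1, JAZ5 and MYC2 passed while LOX3 and JAZ7 did not (1.19% of all probe sets passed in the higher direction). Because the ratio itself differed with genotype, this fit does not separate the 2, and a part of RNA quality in these differences was not tested.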

How the data were processed

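The authors deposited the intensity of 22810 probe sets on each of 6 arrays, made with MAS5 per the submitters' processing notes (version not given in the sources used here). Their deposited up and down tables (341 and 226 probe sets) give a p-value and an absolute fold ratio per probe set, and supplied the gene names. Of the 567, 541 named 1 gene found in RefSeq's table, 21 several, 4 none and 1 an identifier not found there. No other probe set is named here. These tables also hold 48 per-array columns under names that match no label, which were not used.

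OE was compared with KO by limma 3.58.1 in R 4.3.3 (lmFit, eBayes with trend) on log2(signal + 16), with no term besides group, after 64 control probe sets and those at or below the 30th percentile of mean log2 value were left out (15922 tested, among them all 6 genes). P-values were two-sided and Benjamini-Hochberg adjusted over all of these. The steps were tested on simulated data. The genes and lists were chosen with earlier results of these data known. Named are the 6 genes, ANAC069, every other listed jasmonate gene with a named probe set, and the 2 genes most like each of the 6. TT4, MYB34, ANAC055 and SYP122 are named from the Gene Ontology annotation alone, without values. With 3 arrays a group, the array number sets the precision. Alternatives were the added constant, the filter, the scaling, the replicate block, each array left out, the RNA ratio covariate, limma without trend and an equal-variance comparison.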

Additional observations from a re-analysis of the deposited data

How the results depend on the processing

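The 6 jasmonate genes had 83 refitted log2 fold changes between them, counted without limma without a trend and the equal-variance comparison. All were positive. Because the groups of each gene did not overlap, a changed constant or filter or a left-out array could not make a value negative. Of the 83 values, 77 lay within 1 replicate SD of the value reported. The 6 that did not were JAZ7 with an added constant of 1 or 64, and LOX4, JAZ1, JAZ5 and MYC2 with the RNA ratio covariate, all given above. The number of the 6 genes that passed was 3 in limma without a trend (1.01% of all probe sets were higher there). It was 0 in an equal-variance comparison of log2 signals, where 0 of 15922 probe sets passed after adjustment. All 6 genes and 3279 probe sets had an unadjusted p under 0.05 there. For the 6 genes this repeats the authors' own limit on the same arrays, so nothing is read from it. With 1 array left out the number of the 6 genes that passed ranged from 1 to 5. JAZ5 and JAZ7 did not pass with no filter. Of the 4 other listed genes, 1 passed with no filter, with the replicate block, with the RNA ratio covariate and in limma without a trend (1.15%, 1.49%, 1.19% and 1.01% of all probe sets), 4 with the arrays shifted to a common median (4.99%), and 0 in the equal-variance comparison. With 1 array left out between 0 and 3 did. Shifting the arrays to a common median moved the median log2 fold change of all probe sets from -0.08 to 0.09 and the higher share of calls from 62.2% to 84.7%, with all 6 genes higher and passing in both. Over all tested probe sets same-numbered OE and KO arrays did not deviate together (correlations of -0.24, -0.12 and 0.06). Different-numbered pairs lay between -0.21 and 0.27, so these values cannot tell whether the numbers mark pairs. With the replicate number as a block 5 of the 6 genes passed, without JAZ7, beside 238 higher probe sets (1.49%). The block lowered the SE of LOX3 (0.31 to 0.21), LOX4, JAZ1, JAZ5 (0.44 to 0.24) and MYC2. It raised that of JAZ7 (0.44 to 0.49). No second named probe set existed for any of these genes, so that alternative was not run.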
